A study of Mus musculus with 24 samples.

Results

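The levels of 10 mouse genes that encode amino acid transporters were described across 24 RNA sequencing libraries of bone marrow-derived macrophages: Slc7a11, Slc3a2, Slc7a5, Slc7a1, Slc7a3, Slc38a2, Slc1a4, Slc1a5, Slc6a9 and Slc43a1. They were picked by symbol as transporters of the stress response, not by a threshold on measured values, but with earlier results of these data known. Each symbol matched 1 Ensembl identifier, 10 of the 56884 genes counted. The filter on low counts kept 9 of the 10 among 13679 genes tested, and Slc43a1, with 0 to 5 counts in every library, was left out.

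The macrophages were grown with M-CSF from the marrow of 4 wild-type female C57BL/6J mice, 9 weeks old and numbered 1, 2, 4 and 5, and each mouse gave 1 library to each of 6 groups. Naive cells received neither cytokine nor inhibitor. The other 5 groups were stimulated for 24 hours with IL-4 and IL-13, each at 20 ng/ml, and 4 of these also received an inhibitor from 1 hour before the cytokines: tunicamycin at 5 µg/ml, which blocks N-glycosylation and so loads the endoplasmic reticulum with misfolded protein; Sal003 at 10 µM, which slows the dephosphorylation of eIF2α; or, in 2 groups, oligomycin at 1 µM, an inhibitor of ATP synthase in mitochondria. In 1 of the 2 oligomycin groups ISRIB, a compound that counteracts the integrated stress response, was present at 1 µM, and the labels conflict on which. Oligomycin set A held ISRIB by its titles and not by its library names, oligomycin set B held ISRIB by its library names and not by its titles. The transporter levels were not used to choose between these readings.

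In the integrated stress response, kinases that sense different stresses phosphorylate eIF2α, which lowers protein synthesis in general and favors translation of the transcription factor ATF4. ATF4 dimers bind C/EBP-ATF response elements and are known to raise genes of amino acid synthesis, transfer RNA charging and amino acid uptake. Several transporters work in pairs: Slc3a2 (CD98) is a heavy chain that brings light chains such as Slc7a5 and Slc7a11 to the plasma membrane, whereas Slc7a1, Slc38a2, Slc1a4, Slc1a5 and Slc6a9 act without it.

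Promoter sequence was looked at for the core of the C/EBP-ATF response element, written as TGATGNAA on either strand, because most of these genes moved together with the stress treatments. RefSeq windows of GRCm38.p6, from 250 bases before to 50 bases after each start site, were at hand for 7 of the 10 genes. The core occurred in 1304 of 32851 windows of all genes (3.97%), and 23 windows (0.07%) held 2 or more matches. Counted by gene, 1219 of 27025 genes (4.51%) had a window with the core, and 2 of the 7 genes here did. Slc7a11 held 2 matches and Slc1a4 held 1, while the windows of Slc3a2, Slc38a2, Slc7a1 (2 windows), Slc6a9 (3 windows) and Slc43a1 held 0. The stretches that begin 110 bases before the start site are printed 5′ to 3′ on the strand of the gene, with matches in capitals, for both genes with a match and for Slc3a2, the shared heavy chain. They lie at chr3:50443614-50443723, chr11:20332710-20332823 and chr19:8713898-8714007, all on the minus strand.
Slc7a11: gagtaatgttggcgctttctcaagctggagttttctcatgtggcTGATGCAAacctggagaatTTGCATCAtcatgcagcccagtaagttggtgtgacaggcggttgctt
Slc1a4: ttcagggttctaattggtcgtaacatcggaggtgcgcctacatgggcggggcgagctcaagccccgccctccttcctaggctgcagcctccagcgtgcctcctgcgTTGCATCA
Slc3a2: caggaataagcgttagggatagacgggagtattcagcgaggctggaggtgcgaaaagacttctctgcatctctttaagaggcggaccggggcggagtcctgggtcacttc
The matches of Slc7a11 lay at -66 to -59 on the strand of the gene and at -47 to -40 on the other strand, and that of Slc1a4 lay at -4 to 4 on the other strand, with 1 as the first transcribed base. A match describes these letters only, and its absence from a window leaves the rest of the locus unread.

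Reads on genes numbered 16238727 to 26725278 per library (median 18999998). Levels are given as CPM, the counts-per-million scale, computed against library sizes scaled by TMM, on which 3 counts corresponded to 0.116 to 0.182 CPM. All 10 macrophage markers examined were above 1 CPM in every group. Their summed level was 32354 to 38498 CPM in naive and 12684 to 15098 CPM in IL-4/IL-13 libraries. Markers of neutrophils and their precursors summed to 29.1 to 51.3 CPM with IL-4/IL-13, to 0.103 to 0.333 CPM with tunicamycin (4 of 10 markers at 0), to 2.85 to 4.87 CPM in oligomycin set A (3 at 0), to 19.7 to 25.7 CPM in set B and to 5.45 to 8.95 CPM with Sal003. Stromal markers spanned 18.4 to 93.9 CPM with IL-4/IL-13 and 4.13 to 26.7 CPM with tunicamycin. The part of these cells in the transporter values was not tested, and in bulk RNA fewer cells of a type and less RNA per cell cannot be told apart.

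Slc3a2, the shared heavy chain (ENSMUSG00000010095, GRCm39 chr19:8684245-8701108, minus strand), had the highest level of the members in every group, on CPM and per length. It measured 224, 262, 241 and 235 CPM in naive macrophages of mice 1, 2, 4 and 5, and 187, 202, 212 and 206 CPM with IL-4/IL-13. With tunicamycin the same mice gave 2859, 2945, 3068 and 2790.1 CPM. Every tunicamycin library was above every other library of the data. Oligomycin set A gave 1040.2, 1109.7, 1119 and 1132 CPM and set B gave 625, 696, 641 and 710.0 CPM. Sal003 gave 518, 506, 434 and 596 CPM. The 2 oligomycin sets did not overlap each other, and set B lay above the highest Sal003 library. Against IL-4/IL-13, Slc3a2 rose 14.4-fold with tunicamycin (log2 fold change 3.85 ± 0.08, adjusted p = 3.23e-23; edgeR quasi-likelihood test, Benjamini-Hochberg). The rise was 5.45-fold in oligomycin set A, 3.31-fold in set B and 2.54-fold with Sal003, the largest edgeR adjusted p of these being 7.00e-14. IL-4/IL-13 itself lowered Slc3a2 slightly against naive cells (log2 fold change -0.25 ± 0.07, adjusted p = 0.00341 by edgeR, lower in 4 of 4 mice). Of the exons of Slc3a2, 15.9% overlap Snhg1 on the opposite strand, and whether reads were counted by strand is not given in the sources used here. Snhg1 had group means of 8.05 to 20.9 CPM.

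Slc7a5 (LAT1), the light chain that imports leucine and other large neutral amino acids in exchange for glutamine (ENSMUSG00000040010, GRCm39 chr8:122607884-122634433, minus strand), had the largest rise. It measured 4.78, 3.70, 4.02 and 3.33 CPM in naive and 5.85, 5.90, 7.11 and 5.89 CPM in IL-4/IL-13 libraries of mice 1, 2, 4 and 5. Tunicamycin libraries held 222, 228, 229 and 210.5 CPM. All 4 tunicamycin values exceeded every other value, and IL-4/IL-13 libraries lay above all naive ones. In oligomycin set A it measured 54.6, 50.2, 54.2 and 50.4 CPM and in set B 36.9, 32.7, 34.2 and 34.3 CPM. Sal003 libraries held 10.8, 8.06, 8.32 and 11.2 CPM. The 6 groups thus fell in the order tunicamycin, set A, set B, Sal003, IL-4/IL-13 and naive without overlap. The change against IL-4/IL-13 was 35.9-fold with tunicamycin (log2 fold change 5.16 ± 0.09, adjusted p = 1.82e-24 by edgeR), 8.44-fold in oligomycin set A, and 5.56-fold in set B. With Sal003 it was 1.56-fold (log2 fold change 0.64 ± 0.11, adjusted p = 1.58e-05 by edgeR), about the size of the rise with IL-4/IL-13 over naive (log2 fold change 0.64 ± 0.12, adjusted p = 5.71e-05 by edgeR).

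Slc7a11 (xCT), the light chain that takes up cystine in exchange for glutamate and feeds glutathione synthesis (ENSMUSG00000027737, GRCm39 chr3:49846975-50398070, minus strand), rose with the cytokines and again with tunicamycin. Its libraries of mice 1, 2, 4 and 5 held 4.64, 2.73, 5.74 and 4.92 CPM in naive cells and 14.0, 13.6, 17.4 and 14.0 CPM with IL-4/IL-13. The cytokines alone raised it 3.26-fold (log2 fold change 1.70 ± 0.16, adjusted p = 8.53e-10 by edgeR). Tunicamycin libraries held 36.1, 39.6, 34.1 and 39.4 CPM, above all others, a further 2.53-fold (log2 fold change 1.34 ± 0.13, adjusted p = 8.48e-10 by edgeR). The oligomycin libraries held 19.8, 18.3, 17.1 and 20.5 CPM in set A and 22.6, 17.0, 23.4 and 16.0 CPM in set B. Both sets overlapped the highest IL-4/IL-13 library, that of mouse 4. The 2 sets rose by 0.36 and 0.41 on the log2 scale (edgeR adjusted p = 0.0194 and 0.0106), without mouse 1 by 0.30 and 0.30 (adjusted p = 0.137 and 0.170) and without mouse 5 in set A by 0.29 (adjusted p = 0.105). Sal003 libraries held 12.5, 11.1, 13.1 and 10.2 CPM, all below the lowest IL-4/IL-13 library, yet the difference was not past the threshold (log2 fold change -0.33 ± 0.14, adjusted p = 0.0517 by edgeR). With the mouse as a block the Sal003 difference passed (-0.33, edgeR adjusted p = 0.0373), as it did with DESeq2 (adjusted p = 0.0325). It also passed with upper-quartile scaling, library totals, no filter on low counts, a filter of 10 counts in every library and only the groups compared. With any 1 mouse left out it did not pass (edgeR adjusted p up to 0.145, without mouse 5).

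Because light chains need Slc3a2, heavy and light chains were set side by side per length, as TPM (transcripts-per-million) computed from the counts and the union of exons. The light chains summed were Slc7a5, Slc7a6, Slc7a7, Slc7a8 and Slc7a11, and Slc7a10, a further partner, had a TPM of 0 throughout. The summed TPM of the light chains was 166 ± 18.5 (SD, n = 4) in naive, 72.3 ± 6.17 in IL-4/IL-13 and 440.0 ± 11.0 in tunicamycin libraries. Slc7a8 (LAT2) supplied most of it with IL-4/IL-13, 54.6% ± 2.7 of the sum, and Slc7a5 supplied 10.2% ± 0.54. With tunicamycin the share was 67.9% ± 0.88 for Slc7a5 and 13.8% ± 0.55 for Slc7a8. In oligomycin set A Slc7a8 supplied 61.4% ± 2.2, in set B 64.4% ± 5.4 and with Sal003 76.6% ± 2.5. Slc7a11 stayed between 0.840% and 6.01% of the sum as a group mean. With the length of the canonical transcript in place of the union of exons the share of Slc7a5 was lower, 5.29% with IL-4/IL-13, 51.1% with tunicamycin and 14.9% in oligomycin set A, where the union of exons gave 26.1%. Slc7a8 then supplied 57.8% with IL-4/IL-13 and 21.2% with tunicamycin.

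The ratio of Slc3a2 to the summed light chains was 1.51 ± 0.18 (SD, n = 4) in naive and 2.75 ± 0.13 in IL-4/IL-13 libraries. It was 7.33 ± 0.12 with tunicamycin, 4.51 ± 0.23 in oligomycin set A, 3.32 ± 0.21 in set B and 3.06 ± 0.07 with Sal003. Every library with an inhibitor had a higher ratio than every IL-4/IL-13 library, the latter reaching at most 2.86. The ratio depends on the transcript length used: with the canonical transcript in place of the union of exons it was 2.38 with IL-4/IL-13 and 9.22 with tunicamycin.

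**Figure D1:**
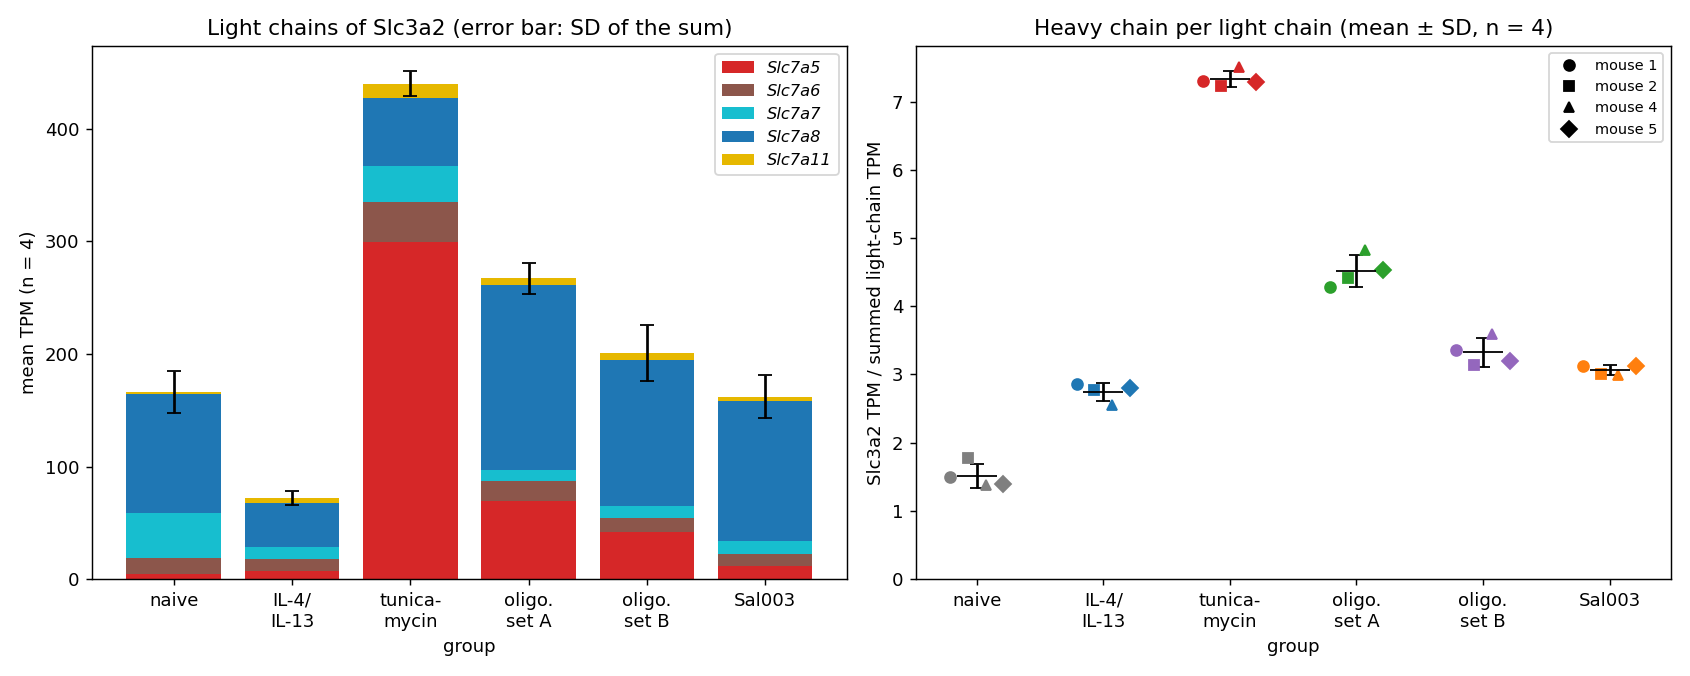
Left, mean TPM of the light chains of Slc3a2 stacked by gene for each group (n = 4 libraries, error bar the SD of the sum); right, the ratio of Slc3a2 TPM to the summed light-chain TPM in each library, by mouse, with mean and SD. Slc7a5 makes up most of the tunicamycin bar and Slc7a8 most of the others, and the ratio is lowest in naive libraries (1.51) and highest with tunicamycin (7.33).

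Slc7a1 (CAT1), the main carrier of arginine and lysine in most tissues (ENSMUSG00000041313, GRCm39 chr5:148264220-148336848, minus strand), had the same order of groups as Slc7a5. Naive libraries of mice 1, 2, 4 and 5 held 6.64, 5.63, 7.03 and 6.21 CPM and IL-4/IL-13 libraries 15.9, 15.6, 18.0 and 12.4 CPM. Tunicamycin libraries held 250.1, 269, 283 and 257 CPM. No group overlapped another, and the IL-4/IL-13 libraries stood 2.43-fold above naive (log2 fold change 1.28 ± 0.10, adjusted p = 4.00e-11 by edgeR). Oligomycin set A held 139, 138, 155 and 141 CPM, set B 95.6, 90.9, 99.0 and 80.8 CPM and Sal003 26.3, 26.6, 24.5 and 26.7 CPM. The rise over IL-4/IL-13 was 17.0-fold with tunicamycin (log2 fold change 4.09 ± 0.08, adjusted p = 3.49e-23 by edgeR), 9.21-fold in set A, 5.88-fold in set B and 1.67-fold with Sal003.

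The related cationic carrier Slc7a2 (CAT2), which is no member but shares substrates with Slc7a1, moved the other way with tunicamycin. Its group mean was 6.39 CPM in naive, 345.7 CPM in IL-4/IL-13 and 3.10 CPM in tunicamycin libraries (log2 fold change -6.80 ± 0.10, adjusted p = 2.50e-25 by edgeR). In oligomycin set B and with Sal003 it stood at 519.9 and 472 CPM, above IL-4/IL-13 (log2 fold changes 0.59 and 0.45), and in set A at 326 CPM (-0.08, edgeR adjusted p = 0.312).

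Slc7a3 (CAT3, ENSMUSG00000031297, GRCm39 chrX:100122745-100129631, minus strand), the third cationic carrier, was near the floor, with 1 to 22 counts per library. It measured 0.557, 0.756, 0.632 and 0.668 CPM with IL-4/IL-13 and 0.359, 0.286, 0.170 and 0.509 CPM with tunicamycin. Sal003 libraries held 0.363, 0.0564, 0.226 and 0.206 CPM. Both groups lay below the lowest IL-4/IL-13 library, with log2 fold changes of -0.96 ± 0.35 for tunicamycin (edgeR adjusted p = 0.0153) and -1.57 ± 0.38 for Sal003 (edgeR adjusted p = 0.00121). Naive cells gave 0.586, 0.455, 0.429 and 0.497 CPM, oligomycin set A 0.663, 0.753, 0.524 and 0.750 CPM and set B 0.271, 0.496, 0.509 and 0.852 CPM, and both oligomycin sets overlapped the IL-4/IL-13 libraries. The tunicamycin call was lost with no filter on low counts (edgeR adjusted p = 0.0549), without mouse 2 (-0.81, edgeR adjusted p = 0.0881) and without mouse 4 (-0.78, edgeR adjusted p = 0.103). No pair of neighbors in the order of its 6 levels differed past the threshold.

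Slc38a2 (SNAT2), a sodium-coupled carrier of small neutral amino acids such as alanine and glutamine that is known to respond to amino acid starvation (ENSMUSG00000022462, GRCm39 chr15:96585266-96597894, minus strand), started from a high level. Mice 1, 2, 4 and 5 gave 161, 129, 179 and 169 CPM in naive and 101, 107, 115 and 107 CPM in IL-4/IL-13 libraries. The cytokines lowered it in 4 of 4 mice (log2 fold change -0.57 ± 0.07, adjusted p = 8.45e-08 by edgeR). Tunicamycin libraries held 474, 496, 523 and 483 CPM, a 4.59-fold rise over IL-4/IL-13 (log2 fold change 2.20 ± 0.07, adjusted p = 1.78e-19 by edgeR). Oligomycin set A held 263, 258, 269.5 and 270.1 CPM and set B 229.9, 247, 255 and 232 CPM. The sets did not overlap but did not differ past the threshold (log2 fold change 0.14 ± 0.07, adjusted p = 0.101 by edgeR, higher in 4 of 4 mice). With Sal003 the values were 122, 129, 125 and 128 CPM, above every IL-4/IL-13 library by a small margin (log2 fold change 0.23 ± 0.07, adjusted p = 0.00713 by edgeR), and that call was lost with library totals in place of TMM (0.13, adjusted p = 0.106), without mouse 1 (0.20, adjusted p = 0.0699) and without mouse 5 (0.21, adjusted p = 0.0564). Against naive cells Sal003 libraries were lower in 3 of 4 mice, with groups that overlapped (log2 fold change -0.34, edgeR adjusted p = 0.000122).

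Slc1a4 (ASCT1), an exchanger of alanine, serine, cysteine and threonine (ENSMUSG00000020142, GRCm39 chr11:20252180-20282774, minus strand), was low without an inhibitor. Naive libraries held 19 to 35 counts (1.71, 1.08, 1.56 and 1.69 CPM) and IL-4/IL-13 libraries 22 to 23 counts (1.28, 1.11, 1.21 and 1.40 CPM). Tunicamycin libraries held 40.5, 42.2, 41.0 and 40.9 CPM. All 4 stood far above the rest. Values were 15.5, 15.7, 17.0 and 17.7 CPM in oligomycin set A, 8.88, 7.49, 7.46 and 9.02 CPM in set B and 3.06, 2.76, 2.43 and 3.65 CPM with Sal003. The 4 inhibitor groups did not overlap one another or the IL-4/IL-13 libraries. The rise over IL-4/IL-13 was 32.9-fold with tunicamycin (log2 fold change 5.04 ± 0.11, adjusted p = 2.31e-22 by edgeR), 13.2-fold in set A, 6.60-fold in set B and 2.40-fold with Sal003. Naive and IL-4/IL-13 levels overlapped (log2 fold change -0.29 ± 0.17, edgeR adjusted p = 0.200).

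Slc6a9 (GLYT1), the glycine transporter (ENSMUSG00000028542, GRCm39 chr4:117691703-117732395, plus strand), was also low at the start and had the order of groups seen for Slc7a5 and Slc7a1. Naive libraries of mice 1, 2, 4 and 5 held 1.76, 0.910, 0.858 and 1.14 CPM and IL-4/IL-13 libraries 1.39, 2.27, 2.21 and 1.82 CPM. Tunicamycin libraries held 29.7, 30.2, 33.3 and 26.5 CPM. Naive and IL-4/IL-13 values overlapped through mouse 1, while the tunicamycin values stood apart. Levels were 20.6, 18.6, 19.9 and 17.9 CPM in oligomycin set A, 12.3, 9.04, 10.1 and 9.91 CPM in set B and 3.01, 2.76, 2.77 and 2.93 CPM with Sal003. Slc6a9 rose 15.4-fold with tunicamycin (log2 fold change 3.95 ± 0.14, adjusted p = 1.04e-18 by edgeR), 9.92-fold and 5.33-fold in oligomycin sets A and B. The 1.48-fold rise with Sal003 (log2 fold change 0.57 ± 0.17, adjusted p = 0.00813 by edgeR) was lost without mouse 1 (0.41, adjusted p = 0.0501) or mouse 5 (0.53, adjusted p = 0.0581), and the rise with IL-4/IL-13 over naive (0.71, adjusted p = 0.00414) without mouse 2 (0.52, adjusted p = 0.0732) or mouse 4 (0.52, adjusted p = 0.0792). Exons of Slc6a9 overlap Ccdc24 (23.5%), B4galt2 (9.07%) and Gm17114 (8.41%) on the opposite strand. The group means of these 3 genes were at most 0.0383, 0.596 and 0.0128 CPM.

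Slc1a5 (ASCT2), the glutamine carrier of many proliferating cells (ENSMUSG00000001918, GRCm39 chr7:16515265-16532731, plus strand), fell with all 4 inhibitors. Naive libraries of mice 1, 2, 4 and 5 held 42.2, 43.2, 37.8 and 35.4 CPM and IL-4/IL-13 libraries 115, 119, 116 and 117 CPM. The cytokines raised it 2.95-fold (log2 fold change 1.56 ± 0.08, adjusted p = 2.35e-14 by edgeR). With tunicamycin it measured 43.4, 41.2, 42.4 and 40.5 CPM, 2.79-fold below IL-4/IL-13 (log2 fold change -1.48 ± 0.08, adjusted p = 1.94e-14 by edgeR). Tunicamycin and naive values overlapped (log2 fold change 0.08 ± 0.08, edgeR adjusted p = 0.391). Oligomycin set A held 63.4, 58.9, 65.8 and 53.1 CPM, set B 60.9, 61.8, 69.9 and 56.5 CPM and Sal003 54.7, 48.5, 62.3 and 45.6 CPM. These 3 groups overlapped one another, and all 12 values lay between the naive and the IL-4/IL-13 libraries. They were 1.94-, 1.88- and 2.21-fold below IL-4/IL-13, and the edgeR adjusted p was at most 6.81e-10.

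Slc43a1 (LAT3, ENSMUSG00000027075, GRCm39 chr2:84669194-84698315, plus strand), a carrier of large neutral amino acids that needs no heavy chain, had 2, 4, 0 and 0 counts in naive libraries of mice 1, 2, 4 and 5 and 2, 2, 5 and 3 counts with IL-4/IL-13. It had 0 counts in each of the 4 tunicamycin libraries, 2, 1, 3 and 0 in oligomycin set A, 1, 2, 1 and 1 in set B, and 1, 0, 0 and 1 with Sal003. The 4 tunicamycin and the 4 Sal003 values lay below all 4 IL-4/IL-13 values, while tunicamycin and naive values overlapped at 0 counts. When the filter on low counts was dropped, tunicamycin lowered Slc43a1 against IL-4/IL-13 (edgeR adjusted p = 0.00149) and against naive cells (edgeR adjusted p = 0.0294). In these 2 comparisons 11117 and 11478 of 27890 genes were then called. The Sal003 difference from IL-4/IL-13 was not past the threshold (edgeR adjusted p = 0.0641). A count of 0 allows up to 3 counts per library, and as the groups lie at or near that floor no fold is given. Stretches of 75 or more bases with at least 95% identity to other genes were sought in the canonical transcript of each member. They made up 44.8% in Slc6a9, 7.67% in Slc1a4, 7.36% in Slc3a2, 6.12% in Slc7a11 and 1.45% in Slc7a1. In Slc6a9 (Ccdc24, Gm17114), Slc1a4 (Gm72467) and Slc7a1 (Gm57292) the other genes are ones that overlap the exons of the member on the opposite strand. Such a match can be the same locus on its other strand and shows no second copy. In Slc3a2 and Slc7a11 reads in these stretches are of uncertain origin.

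**Figure D2:**
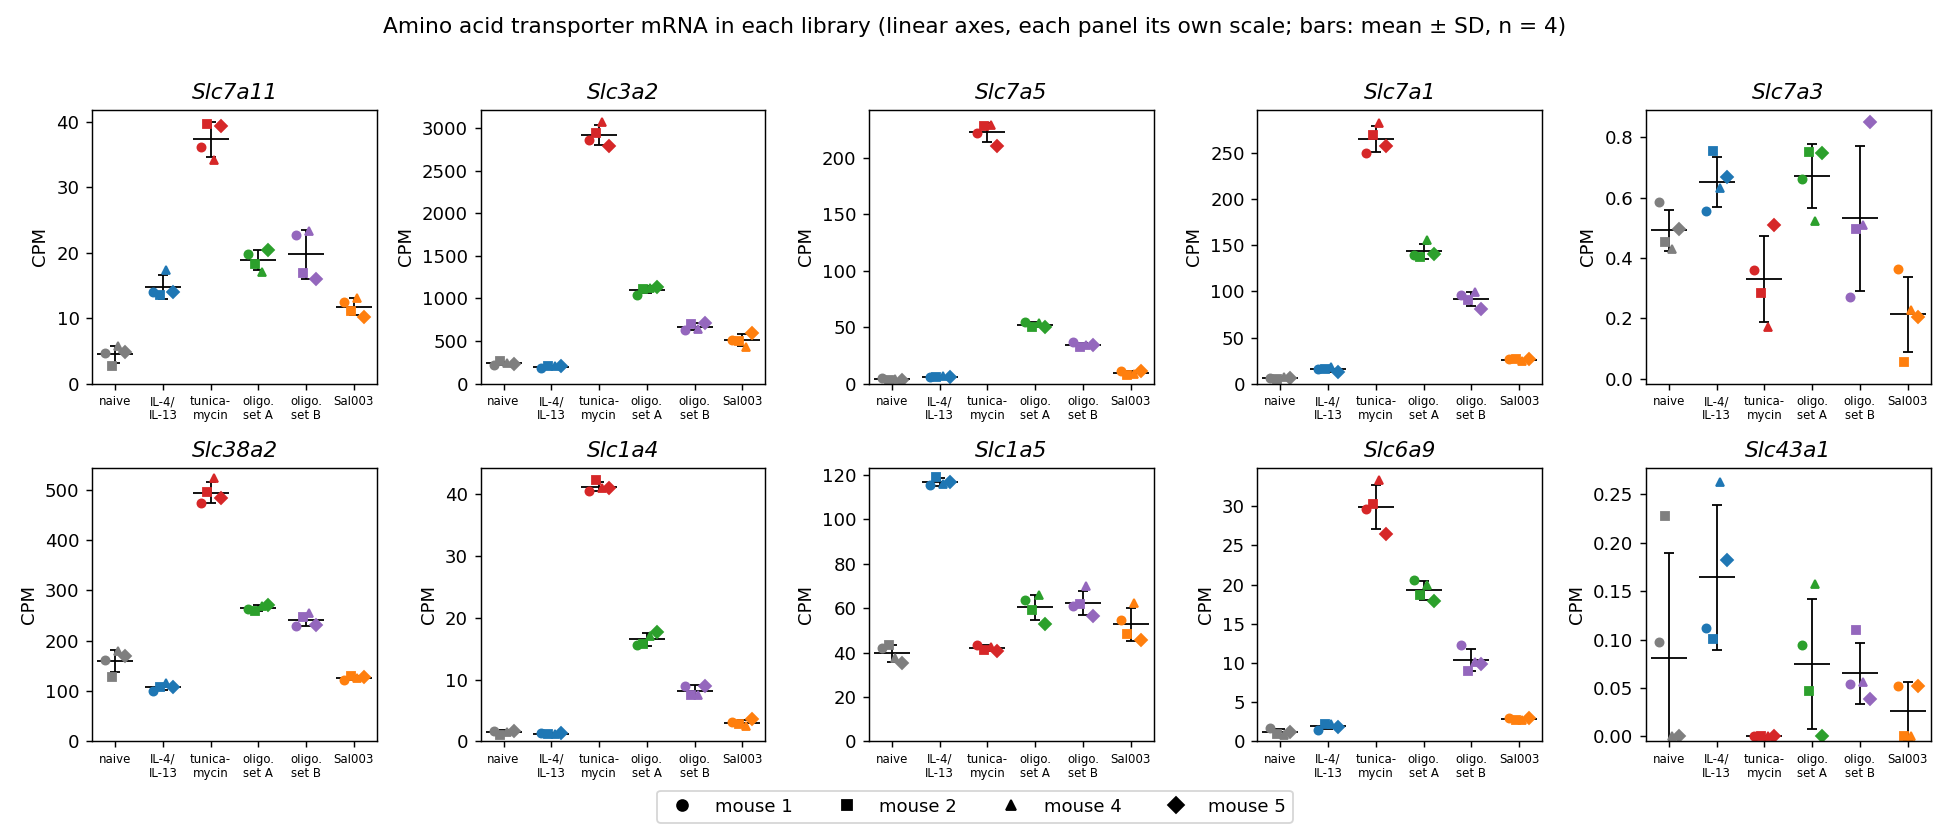
CPM of the 10 transporters in each of 24 libraries, 1 panel per gene with its own linear scale; the marker shape gives the mouse and bars give mean and SD of 4 libraries per group. In Slc3a2, Slc7a5, Slc7a1, Slc38a2, Slc1a4 and Slc6a9 the tunicamycin libraries are highest and oligomycin set A next, whereas Slc1a5 is highest with IL-4/IL-13 (117 CPM).

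Read as a list, tunicamycin raised 7 of the 9 tested transporters over IL-4/IL-13 and lowered 2, where 38.7% and 37.6% of all 13679 genes were called higher and lower at an edgeR adjusted p under 0.05. All 7 rises were at least 2.5-fold, a size reached by 8.56% of all genes, although Slc7a11 passed it narrowly (2.53-fold), and 1 fall, that of Slc1a5, was as large (14.0% of all genes). In oligomycin set A 7 were higher and 1 lower (34.0% and 32.2% of all genes), and in set B again 7 and 1 (27.9% and 26.4%). In each set 5 of the rises reached 2.5-fold, where 4.79% (set A) and 2.94% (set B) of all genes did, with Slc38a2 just short of it in set A (2.46-fold). With Sal003 6 were higher and 2 lower (25.9% and 24.6% of all genes), and 1 of them, Slc3a2 at 2.54-fold, reached 2.5-fold upward (2.68% of all genes) and 1, Slc7a3, downward (5.04%). The median log2 fold change of the 9 was 3.85 with tunicamycin, 2.45 in set A, 1.73 in set B and 0.57 with Sal003, where the median over all genes was 0.01, 0.01, 0.00 and 0.00. These 4 comparisons share the IL-4/IL-13 libraries, and the members were chosen with earlier results of these data known. In IL-4/IL-13 against naive cells 5 were higher and 2 lower (30.1% and 30.4% of all genes), with a median of 0.64 against -0.02 over all genes. Of 45 neighboring pairs in the order of the 6 levels of each tested member, 33 differed past the threshold. Under the alternatives, which tested 40 to 45 pairs, 30 to 36 did. No such count of neighbors was made over all genes. Of the 13679 genes, 2532 (Sal003 against oligomycin set B) to 10617 (tunicamycin against naive) were called, depending on the pair of groups.

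**Figure D3:**
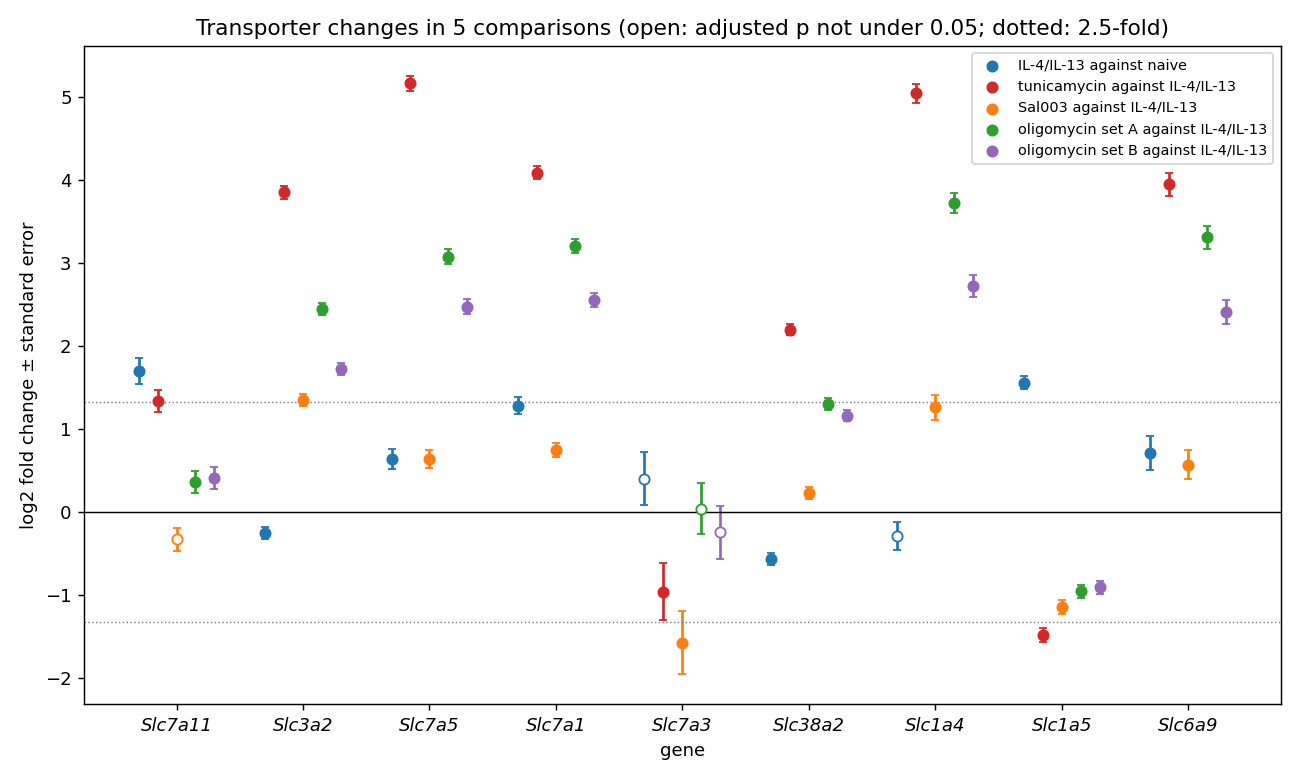
Log2 fold changes with their standard errors for the 9 tested transporters in 5 comparisons; filled points have an adjusted p under 0.05, open points do not, and dotted lines mark 2.5-fold. Slc7a5 and Slc1a4 reach 5.16 and 5.04 with tunicamycin, and Slc1a5 is below 0 in all 4 inhibitor comparisons.

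Comparisons between inhibitors set no group against IL-4/IL-13, although those libraries share in the scaling and in the estimate of the spread. Oligomycin set A was lower than tunicamycin for 7 of the 9 transporters and higher for Slc7a3 and Slc1a5 (31.4% and 32.1% of all genes lower and higher). The call of Slc7a3 was lost without mouse 2 (edgeR adjusted p = 0.0717), and without mouse 4 the count of higher members was also 1. The largest gap was that of Slc7a5 (log2 fold change -2.09, edgeR adjusted p = 1.96e-18) and the smallest of the 7 that of Slc6a9 (-0.64, adjusted p = 6.99e-06). Set B was lower than tunicamycin for 7 and higher for 1, Slc1a5 (35.4% and 35.7% of all genes). Sal003 was lower than oligomycin set B for all 9 that were tested, where 9.74% of all genes were lower and 8.77% higher. These gaps ran from -0.24 for Slc1a5 (edgeR adjusted p = 0.0448) to -1.85 for Slc6a9 (adjusted p = 3.77e-10), and the count was 7 to 9 under the alternatives tried, with 7 without mouse 2 and without mouse 5. Of the 9, Slc7a3 and Slc1a5 lost their call under an alternative (highest adjusted p 0.223 and 0.190 by edgeR).

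The 2 oligomycin groups differed for 5 transporters, all higher in set A (19.9% of all genes higher, 21.3% lower), and 0 of them reached 2.5-fold (1.14% of all genes). They were Slc1a4 (log2 fold change 1.00 ± 0.09), Slc6a9 (0.90 ± 0.11), Slc3a2 (0.72 ± 0.07), Slc7a1 (0.65 ± 0.07) and Slc7a5 (0.60 ± 0.07), each higher in 4 of 4 mice, with edgeR adjusted p of at most 3.38e-07. The other 4 were not past the threshold: Slc38a2, Slc7a3 (0.29 ± 0.31), Slc7a11 (-0.05 ± 0.13) and Slc1a5 (-0.05 ± 0.08). Which set held ISRIB cannot be told from the labels, so these differences carry no direction with respect to ISRIB.

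Over the 24 libraries the levels of 6 members moved together, with Pearson's r of log2 CPM from 0.85 (Slc7a1 with Slc38a2) to 0.99 (Slc7a1 with Slc6a9) among Slc3a2, Slc7a5, Slc7a1, Slc38a2, Slc1a4 and Slc6a9. These points share mice and treatments, and r is given as a description. The 6 were grouped by these same values of r, and no share over all genes is given beside them. Slc7a11 had r of 0.67 to 0.89 with these 6, Slc1a5 -0.51 to -0.15 and Slc7a3 -0.23 to -0.01. Among 10590 other genes with at least 50 counts on average, those most like Slc7a1 were the transfer RNA synthetase genes Yars1 (0.9945), Eprs1 (0.9943) and Tars1 (0.9906). Yars1 was also closest to Slc6a9 (0.9895), followed by Ghitm (0.9883) and Atf4 (0.9872). Hmgxb3 (0.9899) and Atf4 (0.9877) were among the 3 genes most like Slc1a4. Slc7a5 was closest to Aldh18a1 (0.9908), which makes a precursor of proline, then Nfe2l1 (0.9886) and Ddit3 (0.9882), the gene of the stress factor CHOP. Slc3a2 was closest to Cers2 (0.9916), Bcl2a1d (0.9897) and Pno1 (0.9878), and Slc38a2 to the transfer RNA exporter Xpot (0.9853), Rnf115 (0.9820) and Kif2a (0.9813). Slc7a11 paired with Foxk2 (0.9847), Pde4dip (0.9643) and Prep (0.9594), and Slc1a5 with Zyx (0.9856), Errfi1 (0.9731) and Tmc6 (0.9659). For Slc7a3 the highest value was 0.7280, with Cbarp, followed by Nemp1 (0.7073) and Ccdc122 (0.6904).

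Other transporters of the plasma membrane moved in both directions. Of 32 listed, 13 were tested, and with tunicamycin 7 were higher and 5 lower, in oligomycin set A 3 and 5, in set B 6 and 2, and with Sal003 7 and 1. Their median log2 fold change was 0.44, -0.16, 0.09 and 0.21 in that order. Of all genes, 38.7% were higher and 37.6% lower with tunicamycin, and 34.0% and 32.2% in oligomycin set A. In set B the shares were 27.9% and 26.4%, and with Sal003 25.9% and 24.6%. The same shares belong beside the counts of the lists that follow, and no list was tested as a set. Among the plasma membrane transporters of this list with 50 or more mean counts, Slc7a8 rose most. Its largest log2 fold change was 1.89 ± 0.13, in oligomycin set A (adjusted p = 1.35e-12 by edgeR). The group means of Slc7a8 were 202 CPM in naive, 80.1 with IL-4/IL-13 and 109 with tunicamycin. They were 297 CPM in set A, 260 in set B and 255 with Sal003. Slc7a6 (y+LAT2), another light chain, rose with tunicamycin (1.53 ± 0.07). Slc36a2, a proton-coupled carrier of small amino acids, fell from 15.7 CPM with IL-4/IL-13 to at most 1 count in any tunicamycin library.

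Carriers of the lysosomal membrane (10 tested of 11) were higher and lower for 3 and 5 genes with tunicamycin, 3 and 2 for oligomycin set A, 6 and 2 for set B, and 7 and 1 with Sal003. The glutamine exporter Slc38a7 rose with tunicamycin (2.17 ± 0.09), while Mfsd12, needed for cysteine import into lysosomes, fell with tunicamycin (-1.54 ± 0.05) and rose in set B (0.86 ± 0.05). Slc29a3, a nucleoside carrier of the same membrane, fell with tunicamycin (-1.04 ± 0.07). Mitochondrial carriers (12 tested of 14) gave 7 higher and 4 lower with tunicamycin, 5 and 3 for oligomycin set A, 3 and 3 for set B, and 3 and 3 with Sal003. Among those with 50 or more mean counts, the 2 largest rises and the 2 largest falls, taken over all 4 inhibitor comparisons with each gene at its largest change, were with tunicamycin: Slc25a38 (glycine, 1.19 ± 0.07), Slc25a22 (glutamate, 0.84 ± 0.10), Slc25a13 (aspartate-glutamate exchange, -3.02 ± 0.06) and the serine carrier family member Sfxn3 (-1.68 ± 0.05).

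The list of amino acid sensing to the growth kinase mTORC1 (24 tested of 25) holds both activators and inhibitors of that kinase. Its counts therefore give no direction of mTORC1 activity. With tunicamycin 13 genes were higher and 6 lower, and in oligomycin set A 15 and 4. In set B the counts were 12 and 4, and with Sal003 10 and 3. The leucine sensor Sesn2 rose (2.51 ± 0.06 with tunicamycin), whereas its relatives Sesn3 (-3.11 ± 0.12 with tunicamycin) and Sesn1 (-1.87 ± 0.06 in set A) fell. Wdr59, a subunit of the GATOR2 complex, rose with tunicamycin (1.62 ± 0.08). In glutathione synthesis and turnover, which uses the cystine that Slc7a11 imports, 9 of 11 were tested and 7 were higher and 1 lower with tunicamycin, 6 and 2 for oligomycin set A, 3 and 3 for set B, and 2 and 4 with Sal003. Chac1, which degrades glutathione, rose (6.95 ± 0.15 with tunicamycin, from 0.341 to 43.1 CPM). Glutathione reductase Gsr rose with tunicamycin (1.11 ± 0.06) and fell with Sal003 (-0.83 ± 0.07), and Gclc, of the first step of synthesis, fell with Sal003 (-0.43 ± 0.07). Each change named here from the 5 lists had an edgeR adjusted p of at most 1.45e-05.

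**Figure D4:**
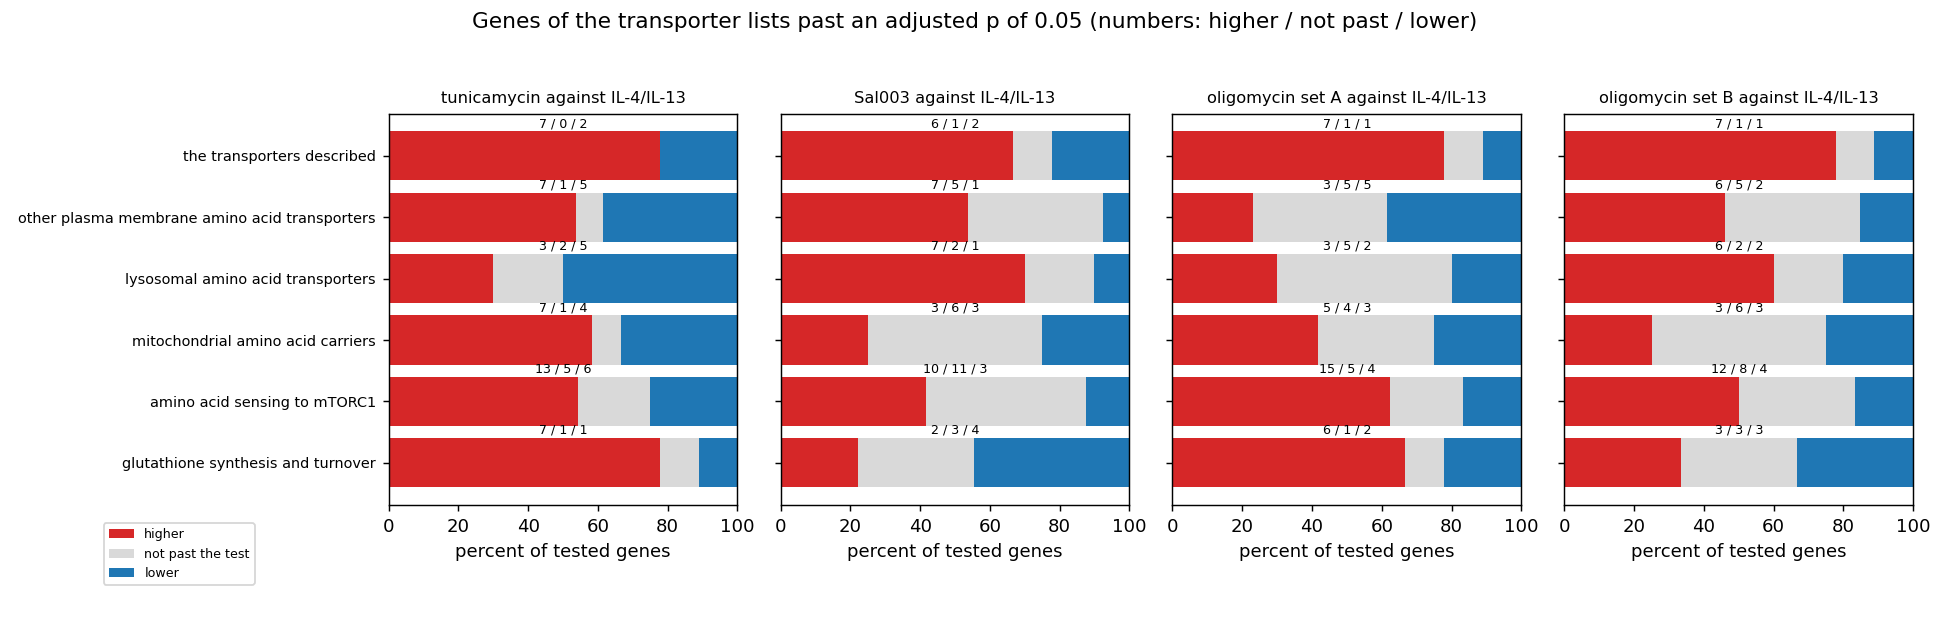
Percent of the tested genes of each list that were higher (red), not past an adjusted p of 0.05 (grey) or lower (blue) in the 4 comparisons with IL-4/IL-13, with the counts printed above each bar as higher, not past and lower. The transporters described show 7 rises with tunicamycin and in both oligomycin sets and 6 with Sal003.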

How the data were processed

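RNA was measured by bulk sequencing of 24 libraries from bone marrow-derived macrophages of 4 mice in 6 groups. The deposited values used here are read counts per gene, for which the authors made libraries with a Watchmaker mRNA kit, trimmed reads with Cutadapt 1.8, aligned them to GRCm39 with STAR 2.7 and counted with HTSeq 0.9.1, without normalization. The authors' table of TPM, made with RSEM 1.2.31, was not used because its header holds 28 names over 25 cells. Rows that name no gene took 12.7% to 15.2% of each total and were left out.

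Groups came from the sample labels, and oligomycin set A and set B from label fields that conflict on ISRIB. The counts were fitted in R 4.3.3 with edgeR 4.0.16 (TMM, filterByExpr, quasi-likelihood test) across all 24 libraries with 1 coefficient per group, and p-values were adjusted by Benjamini-Hochberg over 13679 genes. The threshold was an adjusted p of 0.05, and errors of log2 fold changes are standard errors. The script was checked on simulated counts. TPM was computed here from counts and exon lengths. Replicates differed by more than sampling noise. The biological coefficient of variation was 7.06%.

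Libraries of 1 mouse share an animal: the median correlation of their deviations was 0.236 (56 of 60 pairs over 0.1), against -0.054 between mice (7 of 180). Alternatives were DESeq2 1.42.0, upper-quartile scaling, library totals, other filters, only the groups compared, the mouse as a block and leaving out each mouse. The members and gene lists were chosen with earlier results of these data known. Every member is named, and of each other list the 2 genes with the largest rise and the 2 with the largest fall over the inhibitor comparisons, at 50 or more mean counts. For likeness the 3 genes of highest correlation of log2 CPM were named, except 1 that is not reported here. Slc7a2 is named because it shares substrates with Slc7a1.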

Additional observations from a re-analysis of the deposited data

Results flagged for a closer look

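In 4 of 59 groups of 4 libraries, 1 library lay far from the other 3 by Dixon's criterion, which flags about 1 in 20 groups by chance, and in all 4 it was that of mouse 4. Slc7a11 with IL-4/IL-13 measured 17.4 CPM in mouse 4, the highest, against 13.6 to 14.0 CPM in the others. Slc7a5 with IL-4/IL-13 measured 7.11 CPM in mouse 4, against 5.85 to 5.90 CPM. Slc7a1 measured 155 CPM in mouse 4 of oligomycin set A, against 138 to 141 CPM. With Sal003 Slc7a1 was lowest in mouse 4, at 24.5 CPM, against 26.3 to 26.7 CPM. The cause was not tested.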

How the results depend on the processing

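Of 54 log2 fold changes of the members, 43 kept their direction and their side of the threshold under every alternative run, and 558 of 588 recomputed values did. The counts of members past the threshold stayed within 1.5 times the main count. The direction turned for 3 differences that were not past the threshold: Slc7a3 in oligomycin set A against IL-4/IL-13 ranged from -0.0257 to 0.124 when 1 mouse was left out, Slc7a11 between the oligomycin sets from -0.181 to 0.0830, and with library totals Slc7a11 and Slc1a5 between the sets were 0.0666 and 0.0717. Library totals moved the median of all genes by 0.115 in that comparison. With the mouse as a block (replicate block) the Sal003 difference of Slc7a11 was -0.33 with an edgeR adjusted p of 0.0373, and the block changed no other call in the 6 comparisons. The difference of Slc38a2 between the oligomycin sets passed with library totals (edgeR adjusted p = 0.00237), with upper-quartile scaling (0.0219), with only the groups compared (0.0151) and without mouse 2 (0.0273). Slc7a3 was not tested under the filter of 10 counts in every library. The cause of these shifts was not tested. Alternatives for comparisons between inhibitors, for the order of the groups and for canonical transcript length were chosen after seeing the data. Depth limits Slc43a1 and Slc7a3, which lay near the floor of 3 counts.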
